A study of Zea mays with 12 samples.

Results

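The expression of genes in immature ears was compared between B73 and Mo17, 2 inbred lines of maize. The samples were those labelled B73 (3 arrays) and Mo17 (3 arrays), 6 of the 12 arrays of the series. The other 6 came from the reciprocal hybrids B73xMo17 and Mo17xB73, written by maize convention with the seed parent first, which shared the estimate of the spread. Plants were grown in the field, and no treatment is labelled. Each array held the RNA of 1 biological replicate, a pool of 6 ears of 3.7 to 5.4 mm from which husks and silks had been removed, and ears were taken on 3 consecutive days; 8 ug of total RNA was labelled per Affymetrix maize array. An inbred line is nearly homozygous, so the 3 arrays of a group repeat 1 genotype. Of the 17734 probe sets on the array, 113 were controls, and the other 17621 were described.

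The immature ear is the young female inflorescence. It consists largely of meristems, the dividing tissues that give rise to spikelets and florets, and its architecture is set by transcription factors of the homeobox, MADS-box and YABBY families. B73 and Mo17 belong to different breeding groups and differ in sequence at many genes, including the presence or absence of gene copies. Short oligonucleotide probes respond to sequence as well as to abundance, so a difference in transcript level and a difference in sequence under the probes cannot be told apart in these signals. In a whole ear, fewer cells of a type and less RNA per cell cannot be told apart either.

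The deposited intensities differed in overall level. Their median ran from 123.2 (Mo17 replicate 1) to 231 (B73 replicate 2) over the 6 inbred arrays, so each array was multiplied to the same median before log2. Values are given as signals on that linear scale, whose floor is 11.9, and differences as B73 minus Mo17 on the log2 scale. B73 replicate 2 stood apart at the low end, with 14.3% of probe sets at the floor, against 17.8% to 22.2% on the other 11 arrays. Among the inbred arrays, Mo17 replicate 1 stood apart in other ways. Its signal of the 18S ribosomal RNA control, taken as deposited and not scaled, was 1041, against 30.1 to 78.5 on the other 5 inbred arrays. The scaled signal of rab17, a dehydrin gene induced by abscisic acid and drying, was 1271 on that array and 17.6 to 39.6 on those 5. The hybrids' replicate 1 arrays also had high 18S signals as deposited (898 and 712), with 41.2 to 347 on their other 4. The scaled rab17 signal was 311 on Mo17xB73 replicate 2. Results without B73 replicate 2 or without Mo17 replicate 1 are given below. The 3' to 5' signal ratio, a sign of RNA integrity, was 1.87 ± 0.0674 (SD, n = 3) in B73 and 1.77 ± 0.266 in Mo17 for actin, and 1.32 ± 0.0382 and 1.45 ± 0.177 for GAPDH. Across the 11126 probe sets kept, log2 signals of replicate arrays correlated at 0.977 to 0.992 and those of B73 with Mo17 arrays at 0.798 to 0.828, as a description, since probe sets are not independent. The median standard deviation between replicates was 0.16 in B73 and 0.15 in Mo17 (log2).

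Of the 11126 probe sets kept, 4746 differed between the inbreds at an adjusted p under 0.05 (limma, Benjamini-Hochberg over all probe sets kept), which is 42.7%. Of these, 1763 (15.8% of those kept) were higher in B73 and 2983 (26.8%) were lower. Most differences were small. 3396 were under 2-fold, 771 from 2-fold to 4-fold, 252 from 4-fold to 8-fold, 174 from 8-fold to 16-fold and 153 of 16-fold or more. Differences of at least 2-fold numbered 1350, or 12.1% of the probe sets kept, with 741 higher and 609 lower in B73. They were most frequent among weak signals: 30.5% of the fifth with the lowest mean signal and 3.28% of the fifth with the highest passed with at least 2-fold. The filter and the floor set part of this, since a probe set weak in one inbred is kept through the arrays where it is high, and its low values lower its mean signal. The plot of difference against signal shows this narrowing. Without B73 replicate 2, 1879 were higher and 2422 lower; without Mo17 replicate 1, 1616 were higher and 3170 lower.

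**Figure D1:**
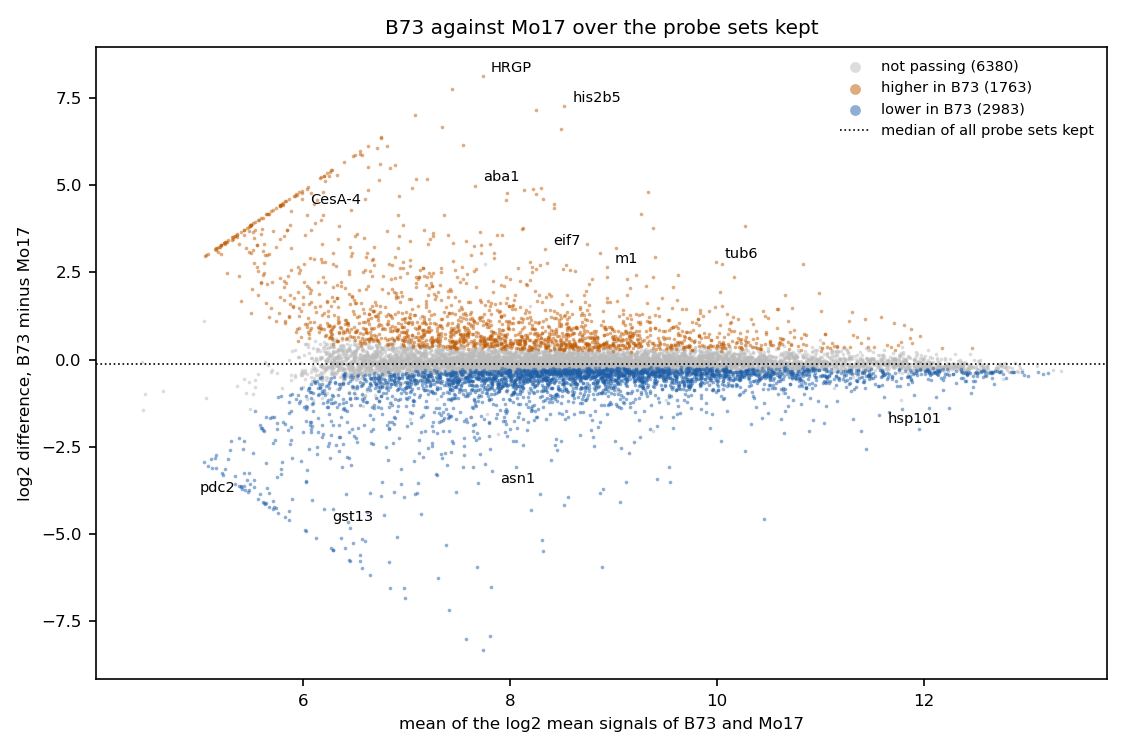
The log2 difference between B73 and Mo17 (vertical axis) is plotted against the mean of the log2 mean signals (horizontal axis) for 11126 probe sets, coloured by the test, with some genes named and a dotted line at the median. The points spread beyond 7 in both directions at low and middle signals and narrow at high signals, and the straight edges at the left are probe sets at the floor in one inbred.

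The split into higher and lower depended on how the arrays were put on one scale. The median difference over the probe sets kept was -0.14 here, 0.28 in the values as deposited, -0.04 after quantile normalization and -0.05 when arrays were scaled to the median of the probe sets kept. The values as deposited gave 2282 higher and 564 lower, quantile normalization 2256 and 2407, and scaling over the probe sets kept 2170 and 2391. Passing in the same direction in all 4 scalings were 1750 of the 1763 higher probe sets and 546 of the 2983 lower ones, and 0 passed in opposite directions. All 546 of those lower probe sets were at least 2-fold lower. Whether a small deficit in B73 passed thus depended on the scaling, so the number of lower genes that also passed as deposited is given for each gene group. Every higher gene named below also passed as deposited. In that fit the prior degrees of freedom were infinite, against 6.32 here. A probe set's own spread between replicates then had no weight, only the spread shared by probe sets of like signal. Passing as deposited thus tells of the scale of the arrays and not of how closely the replicates of a gene lay.

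**Figure D2:**
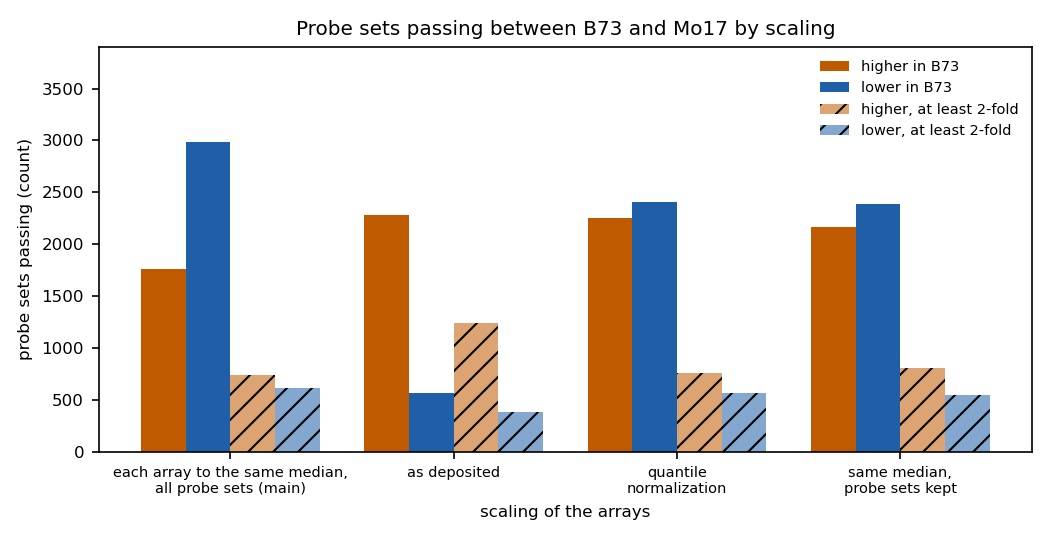
Bars give the number of probe sets passing higher and lower in B73 under 4 scalings of the arrays, in all (solid) and with at least a 2-fold difference (hatched). The lower bar falls from 2983 with the main scaling to 564 in the values as deposited, while the higher bars lie between 1763 and 2282.

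Gene names were at hand for 1270 probe sets of 978 genes, of which 843 probe sets of 698 genes were kept. At least 1 probe set passed for 302 of these genes (43.3%): higher in B73 were 118, lower 180, and 4 had probe sets passing in opposite directions. In all 4 scalings 152 genes had a probe set passing the same way, 120 of them only higher and 31 only lower, with the rest passing both ways. The 15 named genes with the largest difference each way, among those whose B73 and Mo17 arrays did not overlap, passed in all 4 scalings in every case, and the plot of their arrays shows both sets. Arrays of the inbreds did not overlap for 49.0% of all probe sets kept. In brackets, signals are means ± SD of 3 arrays, B73 first, and log2 stands before the difference B73 minus Mo17.

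**Figure D3:**
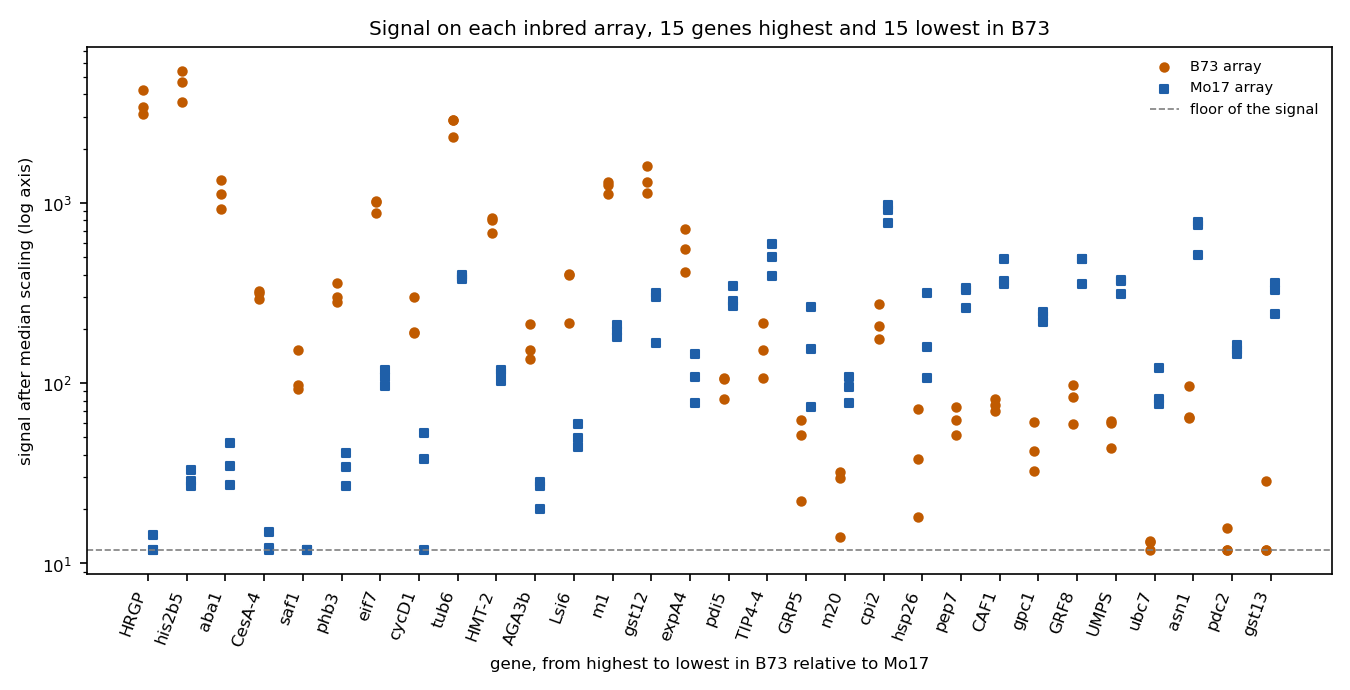
Each point is the signal of 1 array (log axis) for the 15 genes highest and the 15 lowest in B73 relative to Mo17, with the floor as a dashed line. Each gene is shown at 1 probe set, the one with the largest difference that way. The B73 and Mo17 arrays separate for each gene, as the rule of choice required. At HRGP, at the left, 2 Mo17 arrays were at the floor, and at gst13, at the right, 2 B73 arrays were.

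The widest separations were at genes with strong signal in one inbred and hardly any in the other. HRGP, a gene for a wall glycoprotein rich in hydroxyproline, had signals of 4211, 3113 and 3421 on the B73 arrays and 11.9, 14.5 and 11.9 on the Mo17 arrays; the log2 difference was 8.13 ± 0.12 (SE), adjusted p = 5.45e-16. Its second probe set had only floor values in Mo17 and 3022, 2114 and 2542 in B73, at least 214-fold higher. The histone H2B gene his2b5 was at 5397, 3623 and 4715 in B73 and at 33.2, 28.6 and 27.1 in Mo17, so that its log2 difference was 7.26 ± 0.14 (adjusted p = 9.44e-15). For both genes each B73 array was far above each Mo17 array. In the other direction stood 3 probe sets without a gene name. Zm.5083.3.A1_at was at 3891, 3282 and 4356 in Mo17 and at the floor on all B73 arrays, at least 322-fold lower in B73. Zm.14497.4.A1_at was at 2694, 3177 and 3338 in Mo17 and also at the floor in B73, at least 258-fold lower. Zm.14951.1.S1_a_at read 11.9, 15.02 and 16.5 in B73 against 3994, 3321 and 3118 in Mo17 (log2 difference -7.92 ± 0.13, adjusted p = 3.37e-15), with 1 B73 array at the floor. By Affymetrix convention the number in a probe set's name is that of a cluster of similar sequences. Zm.14497.4.A1_at shares its cluster number with the probe set of his2b5, which differed the opposite way; of the 12 kept probe sets with that number, 3 passed higher in B73, 4 passed lower and 5 did not pass. Among 942 cluster numbers with several probe sets kept, 22 had members passing at least 2-fold in opposite directions, 6 at least 4-fold and 2 at least 8-fold; these clusters were counted after the values were seen.

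Cell wall genes were among those most separated. Of 19 genes kept (of 34 on the array), 6 passed higher in B73, 3 passed lower, 1 passed in both directions and 9 did not pass; as deposited, 1 of the 3 lower ones also passed. The median was log2 0.21, beside log2 -0.14 for all probe sets kept. CesA-4, encoding a catalytic subunit of cellulose synthase, had signals of 318, 324 and 292 on the B73 arrays and 14.9, 12.3 and 11.9 on the Mo17 arrays; the log2 difference was 4.59 ± 0.15 (SE), adjusted p = 2.04e-12, and its second probe set differed by log2 3.54. The alpha-expansin gene EXPA5, whose product loosens walls during growth, read 350.1, 379.9 and 376 in B73 against 239, 104 and 119 in Mo17 (log2 difference 1.36 ± 0.27, adjusted p = 0.000859), with no overlap. Also higher were the beta-expansin gene expB3 (525 ± 158 against 278 ± 96.4, log2 0.94) and the lignin gene bm1, encoding a cinnamyl alcohol dehydrogenase (240.1 ± 2.86 against 137 ± 14.7, log2 0.81). The glycine-rich protein gene GRP5 was at 62.5, 51.5 and 22.2 in B73 and at 264, 155 and 73.5 in Mo17, so that its log2 difference was -1.80 ± 0.54 (adjusted p = 0.0149). Its arrays came close, with the lowest Mo17 array just above the highest B73 array, and its call was lost without B73 replicate 3 (adjusted p = 0.0708) or without Mo17 replicate 1 (adjusted p = 0.0628). CesA-5 (log2 -0.47) and CesA-6 (log2 -0.36) were lower by less than 2-fold and did not pass as deposited, and CesA-9 was higher (log2 0.35). The call of CesA-6 was lost without B73 replicate 2, Mo17 replicate 2 or Mo17 replicate 3 (adjusted p = 0.189, 0.146 and 0.118), and that of CesA-9 without B73 replicate 1, B73 replicate 3 or Mo17 replicate 3 (adjusted p = 0.0854, 0.0668 and 0.0732). The other cellulose synthase genes kept, CesA-1, CesA-2, CesA-3, CesA-7 and CesA-8, did not pass here, at log2 -0.26 to 0.22; CesA-8 passed higher in the 3 other scalings (adjusted p = 0.0407, 0.0156 and 0.0204) and CesA-2 as deposited (adjusted p = 0.0464).

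MADS-box genes specify floral organs and meristems. Of 24 genes kept (of 28 on the array), 8 passed higher in B73, 8 passed lower and 8 did not pass; as deposited, 3 of the 8 lower ones also passed. The median was log2 0.08. The largest difference of the list was at m1, which was at 1265, 1115 and 1313 in B73 and at 194, 181 and 211 in Mo17, so that its log2 difference was 2.65 ± 0.10 (adjusted p = 1.98e-11). ZMM2, an AGAMOUS-like gene of the C class, which directs stamen and carpel identity, read 243, 282 and 339.8 in B73 against 88.3, 41.1 and 66.05 in Mo17 (log2 difference 2.20 ± 0.23, adjusted p = 1.59e-06). For both, each B73 array lay above all Mo17 arrays by a wide margin. Another C-class gene, ZAG1 (389 ± 72.2 against 257 ± 81.8, log2 0.63) and the AGL6-like gene ZAG3 (1554 ± 101 against 1004 ± 94.01, log2 0.63) were higher by less than 2-fold, as were m25 (log2 0.93), zmm14 (log2 0.74) and m15 (log2 0.57). The arrays of ZAG1 overlapped, and its call was lost without B73 replicate 3 (adjusted p = 0.0756), Mo17 replicate 2 (adjusted p = 0.0567) or Mo17 replicate 3 (adjusted p = 0.0904). Lower in B73 was si1 (silky1), a B-class gene needed for stamens and lodicules, which read 173, 125 and 145 in B73 against 318, 359 and 393 in Mo17 (log2 difference -1.28 ± 0.17, adjusted p = 2.32e-05). The ovule and carpel gene zag2 was at 168, 161 and 186 in B73 and at 422, 344 and 422 in Mo17, so that its log2 difference was -1.20 ± 0.11 (adjusted p = 3.08e-07). The gene m20 was weak, at 32.4, 14.1 and 29.98 in B73 and 108, 77.7 and 95.1 in Mo17 (log2 -1.96, adjusted p = 5.12e-05), and with the floor at the 40th percentile it did not pass (adjusted p = 0.0817). The arrays of si1, zag2 and m20 did not overlap between the inbreds. The APETALA1-like gene zap1 (1058 ± 56.2 against 1631 ± 98.5, log2 -0.62), the B-class gene zmm16 (log2 -0.76), m21 (log2 -0.73) and m4 (log2 -0.49) were lower here and did not pass as deposited.

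Regulators of meristems and organ polarity in the ear moved in both directions. Of 30 genes kept (of 39 on the array), 8 passed higher in B73, 7 passed lower and 15 did not pass; none of the lower genes passed as deposited. The median was log2 0.02. The YABBY gene yab9, of a family expressed on one face of lateral organs, had signals of 423, 476 and 344 on the B73 arrays and 101, 88.2 and 65.2 on the Mo17 arrays; the log2 difference was 2.30 ± 0.18 (SE), adjusted p = 8.36e-08. The knotted1-like homeobox gene lg4b was at 111, 89.4 and 97.1 in B73 and at 22.9, 35.8 and 12.1 in Mo17, so that its log2 difference was 2.20 ± 0.29 (adjusted p = 2.48e-05). GT1 (grassy tillers1), a homeobox gene that restrains the growth of lateral buds, read 469, 436 and 443 in B73 against 173, 148 and 137 in Mo17 (log2 difference 1.56 ± 0.12, adjusted p = 4.92e-08). In these 3 genes the lowest B73 array was over 2 times the highest Mo17 array. Smaller differences were found for ocl3 (log2 0.77) and ocl5 (log2 0.51), homeobox genes of the epidermis, and for hox1a (log2 0.58) and Hox1b (log2 0.57). The shoot meristem gene kn1 (knotted1), which keeps meristem cells undifferentiated, had signals of 1422 ± 369 in B73 and 2436 ± 90.6 in Mo17 (SD, n = 3; log2 -0.81, adjusted p = 0.000462). The homeobox gene hox3 (log2 -0.79) and the LEAFY-like gene zfl1 (log2 -0.48) were also lower here, and none of kn1, hox3 and zfl1 passed as deposited. Not passing were lg3 (log2 0.25), the CLAVATA-type receptor gene fea2 (fasciated ear2, log2 -0.25), the branching gene tb1 (teosinte branched1, log2 -0.05) and ids1 (indeterminate spikelet1, log2 -0.37); of these, lg3 passed higher in the 3 other scalings (adjusted p = 0.0327, 0.0485 and 0.0457).

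Among other transcription factors, of 14 genes kept (of 23 on the array), 5 passed higher in B73, 4 passed lower and 5 did not pass; as deposited, 1 of the 4 lower ones also passed (median log2 0.01). Nkd1 (naked endosperm1), an indeterminate-domain zinc finger gene, read 345, 297 and 279 in B73 against 35.9, 71.9 and 82.8 in Mo17 (log2 difference 2.35 ± 0.24, adjusted p = 1.35e-06). The bZIP gene ohp1, whose product pairs with Opaque2, was at 896, 769.9 and 938 in B73 and at 247, 288 and 297 in Mo17, so that its log2 difference was 1.64 ± 0.10 (adjusted p = 4.72e-09). DREB2A, a drought and heat responsive factor, was higher on each B73 array (243 ± 36.9 against 92.00 ± 7.90, log2 1.39), as did GLK13 (157 ± 13.5 against 63.5 ± 4.28, log2 1.30). The G-box factor gene GBF1 was lower (146 ± 24.8 against 431 ± 147, log2 -1.53; adjusted p = 7e-05). Growth-regulating factors and their cofactors promote cell proliferation in young organs. Their share passing, 45.5%, was near the 43.3% of all named genes kept. Of 11 genes, all kept, 1 passed higher in B73, 4 passed lower and 6 did not pass; as deposited, 2 of the 4 lower ones also passed (median log2 -0.14). GRF8 had signals of 97.5, 59.5 and 83.7 on the B73 arrays and 487, 487 and 353 on the Mo17 arrays; the log2 difference was -2.48 ± 0.22 (SE), adjusted p = 3.32e-07, and its other kept probe set gave log2 -2.40. GRF13 read 115, 271 and 88.2 in B73 against 329, 375 and 486 in Mo17 (log2 difference -1.48 ± 0.29, adjusted p = 0.000819), with B73 replicate 2 the closest to Mo17. GRF11 was higher in B73 (310.3 ± 40.04 against 222 ± 15.7, log2 0.48). The cofactor gene GIF1 (883 ± 90.5 against 1685 ± 181, log2 -0.93) was lower here and did not pass as deposited.

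For hormone genes, of 20 genes kept (of 30 on the array), 3 passed higher in B73, 3 passed lower and 14 did not pass; none of the lower genes passed as deposited (median log2 0.09). The gene aba1, also named asr1 for its response to abscisic acid, stress and ripening, had signals of 1127, 926 and 1346 on the B73 arrays and 27.2, 46.4 and 34.9 on the Mo17 arrays; the log2 difference was 4.99 ± 0.19 (SE), adjusted p = 2.12e-11, and its other probe set gave log2 1.07. The auxin-binding protein gene abp4 was at 1279, 991 and 1248 in B73 and at 249, 279 and 314 in Mo17, so that its log2 difference was 2.06 ± 0.12 (adjusted p = 2.87e-09), while abp1, encoding another auxin-binding protein, did not pass (log2 -0.25). Neither aba1 nor abp4 overlapped between the inbreds. The cytokinin receptor gene hk3 (111 ± 13.5 against 213 ± 23.1, log2 -0.95) and the gibberellin synthesis gene an1 (anther ear1, 418 ± 16.97 against 669 ± 86.7, log2 -0.67) were lower here and did not pass as deposited.

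Genes of glycolysis, fermentation and organic acids held several of the largest deficits in B73. Their share passing, 40.7%, was near the 43.3% of all named genes kept. Of 27 genes kept (of 28 on the array), 3 passed higher in B73, 8 passed lower and 16 did not pass; as deposited, 3 of the 8 lower ones also passed (median log2 -0.05). The pyruvate decarboxylase gene pdc2, of ethanol fermentation, had signals of 11.9, 15.7 and 11.9 on the B73 arrays and 164, 146 and 152 on the Mo17 arrays; the log2 difference was -3.56 ± 0.25 (SE), adjusted p = 1.74e-08, with 2 B73 arrays at the floor; a second probe set gave log2 -2.24. The gene gpc1, encoding cytosolic glyceraldehyde-3-phosphate dehydrogenase, read 41.9, 61.2 and 32.5 in B73 against 219, 248 and 235 in Mo17 (log2 difference -2.42 ± 0.18, adjusted p = 4.81e-08). Its second, far stronger probe set had means of 5794 and 7332, and its small difference (log2 -0.35) did not pass without B73 replicates 2 or 3 or Mo17 replicates 2 or 3 (adjusted p = 0.169, 0.0709, 0.0712 and 0.178). The phosphoenolpyruvate carboxylase gene pep7 read 62.7, 73.9 and 51.4 in B73 against 263, 329.7 and 338 in Mo17 (log2 difference -2.31 ± 0.16, adjusted p = 1.94e-08). At pdc2, pep7 and the weaker gpc1 probe set the B73 arrays lay well below the Mo17 arrays. GAPN, encoding the non-phosphorylating dehydrogenase of the same triose, was lower by less than 2-fold (204 ± 64.4 against 350.1 ± 17.8, log2 -0.83) and did not pass as deposited. Higher in B73 were PPCK1 (log2 0.46), a kinase gene for phosphoenolpyruvate carboxylase, frk1 (log2 0.49), for a fructokinase, and pgd2 (log2 0.39), for a dehydrogenase of the pentose phosphate pathway. The alcohol dehydrogenase genes adh1 (log2 0.00) and adh2 (log2 0.08) did not pass, though adh1 did after quantile normalization (log2 0.20, adjusted p = 0.0399).

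Among starch and sucrose genes, of 18 genes kept (of 31 on the array), 3 passed higher in B73, 10 passed lower and 5 did not pass; none of the lower genes passed as deposited (median log2 -0.24). The starch synthase gene gss1 (zSSIIb) had signals of 166, 136 and 182 on the B73 arrays and 38.2, 35.1 and 29.9 on the Mo17 arrays; the log2 difference was 2.23 ± 0.21 (SE), adjusted p = 5.04e-07. Every B73 array was above every Mo17 array, as for the sucrose synthase gene sus2 (144 ± 34.97 against 68.6 ± 25.4, log2 1.10) and the starch synthase gene ss1 (409 ± 18.5 against 274 ± 43.1, log2 0.59). The lower genes included the invertase gene ivr2 (log2 -0.88), the branching enzyme gene sbe1 (log2 -0.66), AGPLS3, for a large subunit of ADP-glucose pyrophosphorylase (log2 -0.57), and the granule-bound starch synthase gene GBSSIIa (log2 -0.44), all under 2-fold. The calls of ae1, iso3, spp1 and Agp2, also lower here, were each lost without some single inbred arrays. Without Mo17 replicate 2, for example, adjusted p was 0.13 for ae1, 0.0938 for spp1 and 0.0617 for Agp2. Without Mo17 replicate 1 it was 0.171 for iso3. Photosynthesis genes are those that leaf or husk tissue would also bring. Of 12 genes kept (of 16 on the array), 3 passed higher in B73, 6 passed lower and 3 did not pass; none of the lower genes passed as deposited (median log2 -0.53). The light-harvesting genes lhcb5 (757 ± 69.4 against 1253 ± 61.2, log2 -0.73), lhcb6 (349.8 ± 29.2 against 597 ± 52.97, log2 -0.77) and Cab-m7 (581 ± 62.01 against 1051 ± 72.96, log2 -0.86) were lower in B73. Higher were fnr1 (205 ± 41.3 against 98.3 ± 13.6, log2 1.05) and L-FNRII (log2 0.71), of ferredoxin-NADP reductase, while L-FNRI, of the same enzyme, passed lower (56.9 ± 3.17 against 98.2 ± 20.6). Also higher was Ppdk1, encoding pyruvate orthophosphate dikinase, of which 1 of 4 kept probe sets passed (log2 0.82). The summed signal of the 26 probe sets of these photosynthesis genes was 4369 to 5212 over the B73 arrays and 6037 to 6507 over the Mo17 arrays, and 2 probe sets were at the floor throughout in each inbred. The part of leaf or husk tissue in these differences was not tested.

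For amino acid, nitrogen and nucleotide genes, of 13 genes kept (of 20 on the array), 2 passed higher in B73, 5 passed lower and 6 did not pass; as deposited, 2 of the 5 lower ones also passed (median log2 -0.23). The asparagine synthetase gene asn1 had signals of 65.3, 97.02 and 64.4 on the B73 arrays and 784, 756 and 515 on the Mo17 arrays; the log2 difference was -3.18 ± 0.44 (SE), adjusted p = 3.44e-05. UMPS, encoding the last enzyme of uridine monophosphate synthesis, read 61.6, 43.9 and 60.4 in B73 against 313, 370.2 and 372 in Mo17 (log2 difference -2.68 ± 0.14, adjusted p = 7.96e-10). Both had all B73 arrays far below the Mo17 arrays, though the second UMPS probe set differed by log2 -0.67 alone. The glutamine synthetase gene Gln1-4 was higher in B73 (609 ± 122 against 340.1 ± 26.5, log2 0.82), and orp1, for the beta subunit of tryptophan synthase, was lower here (257 ± 32.5 against 395 ± 26.5, log2 -0.63) and did not pass as deposited. HMT-2, encoding a homocysteine methyltransferase that makes methionine, was at 802, 678 and 829.7 in B73 and at 102, 119 and 114 in Mo17, so that its log2 difference was 2.79 ± 0.12 (adjusted p = 8.54e-11). Among plastid genes of transcription, RNA splicing and protein import, of 14 genes kept (of 24 on the array), 1 passed higher in B73, 5 passed lower and 8 did not pass; as deposited, 1 of the 5 lower ones also passed (median log2 -0.31). The share of these plastid genes passing, 42.9%, was near the 43.3% of all named genes kept. CAF1, a group II intron splicing factor of the chloroplast, read 82.2, 75.3 and 70.4 in B73 against 489.6, 357 and 369.8 in Mo17 (log2 difference -2.40 ± 0.13, adjusted p = 9.31e-10), with no overlap. The import receptor gene toc34 was higher (693 ± 4.78 against 499 ± 46.7, log2 0.48), while the organelle RNA polymerase gene rpot1 (log2 -0.36) and the sigma factor gene sig2A (log2 -0.67; adjusted p = 0.0606 without B73 replicate 1) were lower here and did not pass as deposited. Among lipid and wax genes, of 8 genes kept (of 10 on the array), 1 passed higher in B73, 2 passed lower and 5 did not pass; as deposited, 1 of the 2 lower ones also passed (median log2 -0.23). FAD8, a fatty acid desaturase gene, was lower (64.6 ± 19.9 against 141 ± 8.05, log2 -1.18), the lipid transfer protein gene plt2 was higher (152 ± 21.7 against 88.6 ± 24.9, log2 0.81) and Acc-1, encoding acetyl-CoA carboxylase, did not pass (log2 -0.28). The call of plt2 was lost without any 1 of 4 arrays, with adjusted p of 0.0691 without B73 replicate 2, 0.0717 without B73 replicate 3, 0.0538 without Mo17 replicate 2 and 0.106 without Mo17 replicate 3.

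Glutathione and redox genes were mixed: of 26 genes kept (of 47 on the array), 8 passed higher in B73, 5 passed lower, 1 passed in both directions and 12 did not pass; as deposited, 2 of the 5 lower ones also passed (median log2 -0.04). The glutathione transferase gene gst12 had signals of 1314, 1143 and 1611 on the B73 arrays and 166, 301 and 317 on the Mo17 arrays; the log2 difference was 2.42 ± 0.19 (SE), adjusted p = 8.9e-08. CAT3, a catalase gene, read 321, 302 and 329 in B73 against 102, 63.5 and 51.2 in Mo17 (log2 difference 2.20 ± 0.19, adjusted p = 2.16e-07). Glutathione reductase gene gsr1 was at 308, 247 and 332 in B73 and at 92.00, 106 and 103 in Mo17, so that its log2 difference was 1.55 ± 0.12 (adjusted p = 7.49e-08). All 3 were higher on each B73 array. Also higher were gst28 (log2 1.13), gst11 (log2 1.02) and gst3 (log2 0.84), and GST38 (log2 -1.28) and gst5 (log2 -1.11) were lower in B73 as deposited too. The safener-induced gene saf1 (In2-1) was at 93.1, 153 and 97.5 in B73 and at the floor on all Mo17 arrays, at least 9.42-fold higher (adjusted p = 1.69e-08). Among defence and benzoxazinoid genes, of 11 genes kept (of 24 on the array), 6 passed higher in B73, 3 passed lower and 2 did not pass; none of the lower genes passed as deposited (median log2 0.48). The beta-glucosidase gene glu1, whose enzyme releases toxic aglycones from benzoxazinoid glucosides, read 556, 507 and 961 in B73 against 252, 286 and 234 in Mo17 (log2 difference 1.33 ± 0.20, adjusted p = 6.77e-05), with B73 replicate 3 highest. The gene opr7, of jasmonate synthesis, was at 625, 564 and 537 in B73 and at 196, 277 and 248 in Mo17, so that its log2 difference was 1.27 ± 0.14 (adjusted p = 2.49e-06). The indole gene igl1 (537 ± 84.5 against 287 ± 51.6, log2 0.91) and the farnesyl diphosphate synthase gene fps1 (406 ± 20.46 against 218 ± 8.78, log2 0.90) were higher as well, whereas the lipoxygenase gene lox3 was lower here (77.8 ± 20.4 against 146 ± 35.2, log2 -0.91) but not as deposited or without B73 replicate 2 (adjusted p = 0.0528). Squalene synthase gene sqs1, of sterol synthesis, read 919, 896 and 839 in B73 against 287, 332 and 232 in Mo17 (log2 difference 1.65 ± 0.11, adjusted p = 1.58e-08); with fps1 and an1 it made up the 3 kept of 9 terpene pathway genes, of which 2 were higher and 1 lower.

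Heat shock genes had the lowest median of the lists, log2 -1.16. Of 7 genes, all kept, 0 passed higher in B73, 4 passed lower and 3 did not pass. All lower genes also passed as deposited, in a fit that gave no weight to a probe set's own spread (hsp26 at adjusted p = 2.85e-05 there). The chaperone gene hsp101, needed for tolerance of heat, had signals of 754, 2047 and 2776 on the B73 arrays and 6224, 3878 and 4758 on the Mo17 arrays; the log2 difference was -1.58 ± 0.36 (SE), adjusted p = 0.00244. The small heat shock gene hsp18c was at 351, 623 and 758 in B73 and at 1924, 1265 and 1516 in Mo17, so that its log2 difference was -1.49 ± 0.38 (adjusted p = 0.00533). Another small heat shock gene, hsp22, read 2164, 4596 and 5751 in B73 against 7134, 7405 and 8129 in Mo17 (log2 difference -0.97 ± 0.30, adjusted p = 0.0169). The groups did not overlap in these 3 genes. The plastid heat shock gene hsp26 read 18.03, 38.1 and 71.9 in B73 against 318, 107 and 159 in Mo17 (log2 difference -2.26 ± 0.70, adjusted p = 0.0179). B73 replicate 1 was the lowest B73 array for all 4 genes, and Mo17 replicate 1 the highest Mo17 array for hsp101, hsp18c and hsp26; among the inbred arrays that array also stood apart in rab17 and the 18S control, whose part in these differences was not tested. Without B73 replicate 1, hsp26 (adjusted p = 0.0796) and hsp22 (adjusted p = 0.0725) did not pass, and hsp26 did not pass without Mo17 replicate 1 (adjusted p = 0.0679); quantile normalization ended the call of hsp22 (adjusted p = 0.141). The other members hsp18a (log2 -1.16), hsp18f (log2 -0.56) and the heat shock factor gene hsfb (log2 -0.28) did not pass, though hsp18a did as deposited (log2 -0.74, adjusted p = 0.00402). In the folding machinery of the endoplasmic reticulum, of 19 genes, all kept, 1 passed higher in B73, 7 passed lower and 11 did not pass; as deposited, 2 of the 7 lower ones also passed (median log2 -0.22). The protein disulfide isomerase gene pdi5 read 107, 105 and 81.8 in B73 against 268, 285 and 344 in Mo17 (log2 difference -1.61 ± 0.16, adjusted p = 8.91e-07), and pdi8 was also lower (511 ± 153 against 1083 ± 312, log2 -1.09). DER2.2, a derlin gene of protein export from the endoplasmic reticulum, was higher at one of its probe sets (691 ± 204 against 382 ± 41.6, log2 0.82). The isomerase gene pdi4 (log2 -0.76) was lower here and did not pass as deposited, and the chaperone genes bip1 (log2 -0.43) and bip2 (log2 0.04) did not pass. In this folding list 42.1% of genes passed, near the 43.3% of all named genes kept.

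Among membrane transport genes, of 25 genes kept (of 45 on the array), 3 passed higher in B73, 8 passed lower and 14 did not pass; as deposited, 2 of the 8 lower ones also passed (median log2 -0.18). Lsi6, encoding a channel for silicic acid, had signals of 399, 216 and 405 on the B73 arrays and 49.6, 44.3 and 59.1 on the Mo17 arrays; the log2 difference was 2.69 ± 0.23 (SE), adjusted p = 2.24e-07. The ABC transporter gene MRP2 was at 345, 275 and 328 in B73 and at 82.5, 67.8 and 70.6 in Mo17, so that its log2 difference was 2.10 ± 0.14 (adjusted p = 1.32e-08). Of the water channels, TIP4-4 of the vacuole read 107, 215 and 152 in B73 against 393, 501 and 596 in Mo17 (log2 difference -1.69 ± 0.21, adjusted p = 1.43e-05). Lsi6 and MRP2 were higher on each B73 array and TIP4-4 lower. Of the transport genes kept 44% passed, near the 43.3% of all named genes kept. The 4 kept probe sets of the plasma membrane aquaporin gene PIP1-3 were at log2 -1.13 to -0.86, and 2 of them passed as deposited; TIP2-1 was higher in B73 (139.7 ± 4.75 against 60.7 ± 8.45, log2 1.21). Lower here but not as deposited were pip2b (log2 -0.93) and the proton pyrophosphatase gene vpp1 (log2 -0.87). For mitochondrial genes, of 14 genes kept (of 17 on the array), 3 passed higher in B73, 0 passed lower and 11 did not pass (median log2 -0.02). The prohibitin gene phb3, of an inner membrane scaffold, read 301, 282 and 359.9 in B73 against 34.3, 41.01 and 26.97 in Mo17 (log2 difference 3.22 ± 0.17, adjusted p = 1.07e-09). Higher were also ANT-G1, the adenine nucleotide translocator (3685 ± 731 against 1683 ± 191, log2 1.12), and the alternative oxidase gene aox1 (117 ± 6.72 against 46.5 ± 6.39, log2 1.34). Another prohibitin gene, phb4, did not pass here (log2 0.34, adjusted p = 0.0516) and passed higher in the 3 other scalings (adjusted p = 0.00967, 0.000925 and 0.00441). Among translation genes, of 26 genes, all kept, 3 passed higher in B73, 5 passed lower and 18 did not pass; as deposited, 1 of the 5 lower ones also passed (median log2 -0.15). The cap-binding initiation factor gene eif7 (eIFiso-4E) was at 1015, 879 and 1031 in B73 and at 108, 119 and 97.1 in Mo17, so that its log2 difference was 3.17 ± 0.11 (adjusted p = 3.95e-12), and its second probe set differed by log2 0.71. The ribosomal protein gene rpl30 was higher (2548 ± 369 against 932 ± 168, log2 1.46) and rpl39 lower (3079 ± 450.3 against 6417 ± 296, log2 -1.07), both without overlap, and eif3 was higher (1024 ± 95.7 against 628 ± 31.3, log2 0.70).

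Chromatin genes were the longest list. Of 61 genes kept (of 63 on the array), 8 passed higher in B73, 13 passed lower and 40 did not pass; none of the lower genes passed as deposited (median log2 -0.09). Beside his2b5, the genes highest in B73 were hac108 (609 ± 94.7 against 285 ± 28.8, log2 1.09), hag101, the GCN5 acetyltransferase (689 ± 90.9 against 358 ± 23.5, log2 0.94), hxa103 (442 ± 52.1 against 268 ± 16.8, log2 0.72) and ada2 (log2 0.65). The lower genes, such as the deacetylase gene HDA108 (log2 -0.69), the methyl-DNA-binding gene mbd111 (log2 -0.61) and the Polycomb gene fie2 (log2 -0.41), were all lower by less than 2-fold. In the cell cycle, of 25 genes, all kept, 3 passed higher in B73, 5 passed lower and 17 did not pass; none of the lower genes passed as deposited (median log2 -0.16). The D-type cyclin gene cycD1, which drives entry into division, had signals of 191, 300.4 and 193 on the B73 arrays and 11.9, 52.6 and 38.2 on the Mo17 arrays; the log2 difference was 2.96 ± 0.39 (SE), adjusted p = 2.13e-05, with 1 Mo17 array at the floor. The recombinase gene rad51a was higher (547 ± 5.77 against 354 ± 43.4, log2 0.64), as was MCM6 (log2 0.36), of the replicative helicase. The replication clamp gene pcna2 (2324 ± 297 against 3746 ± 321, log2 -0.69) and the retinoblastoma gene RBR2 (71.00 ± 0.971 against 119.9 ± 8.91, log2 -0.75) were lower here and did not pass as deposited. For the cytoskeleton, of 23 genes kept (of 28 on the array), 2 passed higher in B73, 4 passed lower, 1 passed in both directions and 16 did not pass; none of the lower genes passed as deposited (median log2 0.03). The beta-tubulin gene tub6 was at 2880.0, 2312 and 2885 in B73 and at 396, 389.9 and 378 in Mo17, so that its log2 difference was 2.79 ± 0.10 (adjusted p = 7.67e-12) at one of its probe sets. The kinesin gene kin15 was higher (243 ± 15.7 against 118 ± 1.86, log2 1.03), tub5 was higher by less than 2-fold at one of its probe sets (log2 0.39) and TUBB2 was lower (log2 -0.46), the last not as deposited or without Mo17 replicate 3 (adjusted p = 0.0504).

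Among signalling genes, of 31 genes kept (of 35 on the array), 2 passed higher in B73, 7 passed lower and 22 did not pass; none of the lower genes passed as deposited (median log2 -0.13). The small GTPase gene rop3 was higher (353 ± 40.2 against 240.2 ± 18.9, log2 0.55). Lower here but not as deposited were the phosphatase gene KAPP (177 ± 17.9 against 293 ± 25.7, log2 -0.73), the receptor kinase gene serk3 (log2 -0.45) and the GTPase gene rop6 (log2 -0.40). For protein turnover, of 9 genes kept (of 10 on the array), 1 passed higher in B73, 4 passed lower and 4 did not pass; as deposited, 1 of the 4 lower ones also passed (median log2 -0.32). The ubiquitin-conjugating enzyme gene ubc7 had signals of 11.9, 13.2 and 13.2 on the B73 arrays and 121, 82.2 and 76.9 on the Mo17 arrays; the log2 difference was -2.84 ± 0.24 (SE), adjusted p = 1.72e-07, with 1 B73 array at the floor. With the floor at the 40th percentile this probe set did not pass (adjusted p = 0.194). The 5 other kept probe sets of ubc7 did not pass, at log2 -0.24 to 0.00, and the one that did carries the cluster number of the zein gene zp27, so its name is uncertain. The protease inhibitor gene cpi2, encoding a cystatin, read 176, 275 and 208 in B73 against 769, 914 and 968 in Mo17 (log2 difference -2.03 ± 0.16, adjusted p = 7.88e-08), while its second probe set did not pass (log2 0.09). Among pigment genes, of 4 genes kept (of 10 on the array), 1 passed higher in B73, 0 passed lower and 3 did not pass (median log2 0.00). Pds, of carotenoid synthesis, was the higher gene (202 ± 25.2 against 153 ± 25.2, log2 0.40), and its call was lost without B73 replicate 1 (adjusted p = 0.0698), B73 replicate 3 (adjusted p = 0.107) or Mo17 replicate 2 (adjusted p = 0.14). Chalcone synthase gene chs1 did not pass (log2 -0.22), nor did the only kept peroxidase gene of 6, PER1 (log2 -0.43). AGA3b was at 153, 213 and 136 in B73 and 28.2, 26.9 and 20.003 in Mo17 (log2 2.73, adjusted p = 1.19e-07).

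Among the lists with at least 10 genes kept, the share of genes with a passing probe set ran from 21.4% of mitochondrial genes and 29.03% of signalling genes to 72.2% of starch and sucrose genes, 75% of photosynthesis genes and 81.8% of defence genes, beside 43.3% of all named genes kept. The high shares rest in part on the scaling. Passing the same way in all 4 scalings were 16.7% of starch and sucrose genes, 25% of photosynthesis genes and 54.5% of defence genes. Of all named genes kept it was 21.8%. In each of these lists the genes so counted were all higher in B73, since no lower gene passed as deposited. These shares thus follow the direction of the differences and do not tell how well the lower calls hold. With the main scaling, chromatin (34.4%), translation (30.8%), cytoskeleton (30.4%) and cell cycle genes (32%) lay below the 43.3% of all named genes kept. MADS-box genes (66.7%) lay above. Close to 43.3% were endoplasmic reticulum folding (42.1%), glycolysis, fermentation and organic acids (40.7%), plastid genes (42.9%), membrane transport (44%) and growth-regulating factors (45.5%). Their counts are thus like those of named genes at large. These are descriptions, and no list was tested against another.

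**Figure D4:**
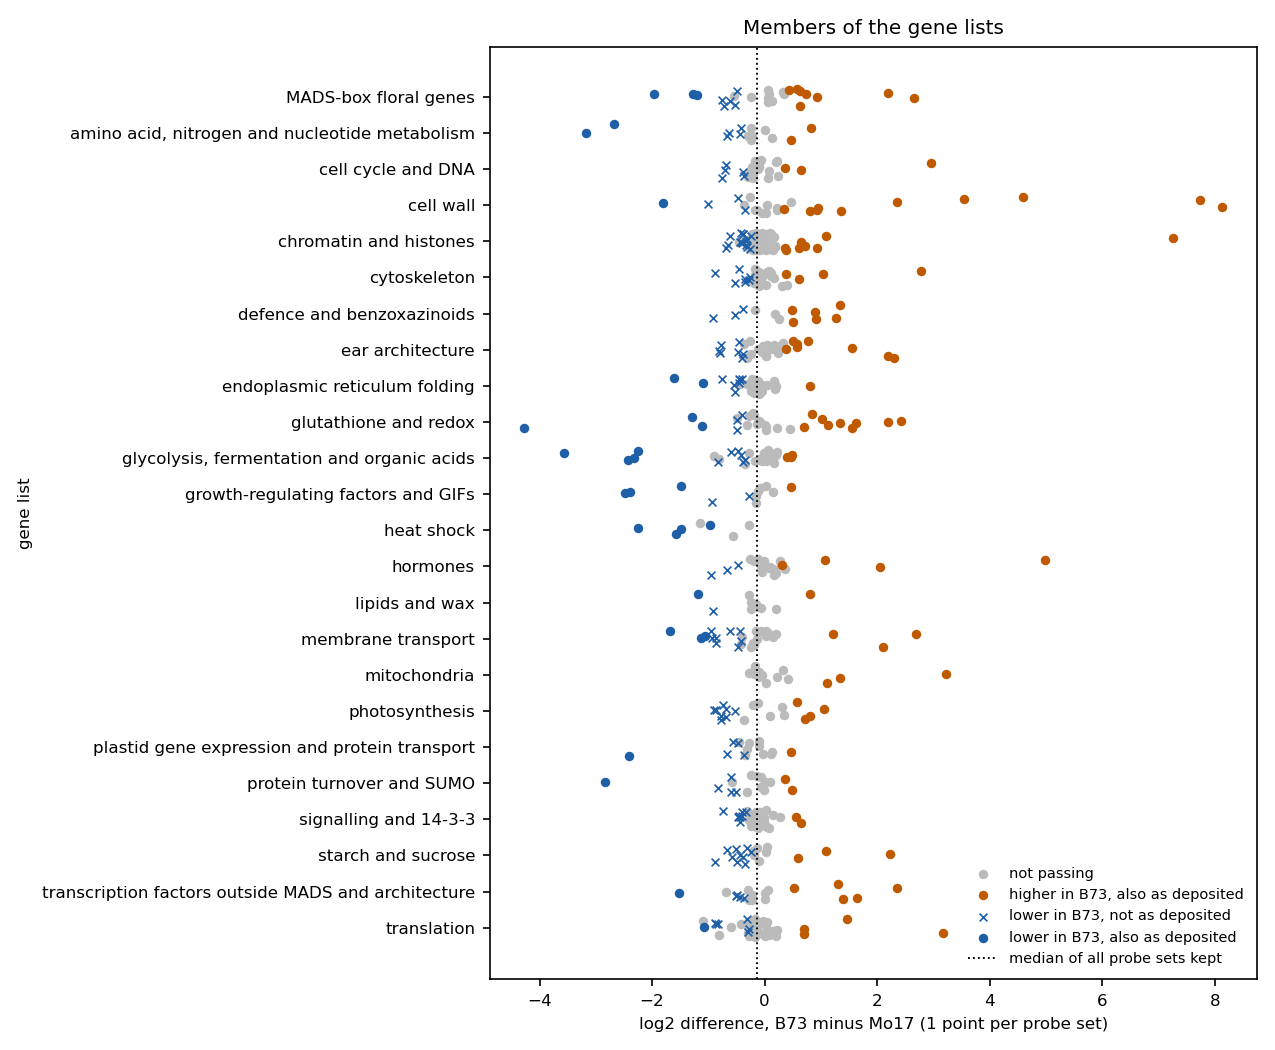
Each point is the log2 difference of 1 kept probe set, by gene list, with a dotted line at the median of all probe sets kept; orange points passed higher in B73, blue points passed lower in B73 and blue crosses did so with the main scaling but not in the values as deposited. The heat shock points all lie left of the line, the cell wall list reaches 8.13 at the right, and most blue crosses lie between -1 and 0.

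The label of the tissue was checked against markers. By signal over the inbred arrays, the 9 genes of the young inflorescence ranked from percentile 34.07 to 94.00: kn1 was at 94.00, zap1 at 90.9, fea2 at 78.3, lg3 at 70.3, ZAG1 at 64.98, zag2 at 60.99, ids1 at 43.2, bd1 at 38.9 and lg4b at 34.07. Most markers of kernel and pollen were not kept. Of 19 endosperm genes 3 were kept, the zein gene zp27 (log2 -0.09), FL1 (log2 -0.03) and meg6, of which meg6 was lower here (2231 ± 156 against 2835 ± 169, log2 -0.35) and not as deposited. The 30 endosperm probe sets summed to 2819 to 2969 in B73 and 3321 to 3613 in Mo17, and 12 and 19 of them were at the floor on all arrays of the inbred. Most of these sums, and of their difference between the inbreds, came from the kept meg6 probe set alone. The endosperm genes pbf1, fl2 and betl2, the embryo genes ole1 and glb3 and the pollen genes mgs1, mgs2 and PRO1 were at the floor on all 6 arrays. Of 9 embryo genes dehydrin3 alone was kept and did not pass (log2 0.24, adjusted p = 0.0634 at the nearest of 3 probe sets), though this probe set passed in each of the 3 other scalings. The 14 embryo probe sets summed to 3281 to 3806 in B73 and 3396 to 4050.2 in Mo17. Most of this came from the 3 probe sets of dehydrin3 (means 1498, 1184 and 686 in B73, 1272, 1236 and 542 in Mo17). The signal of rab17 on Mo17 replicate 1 (1271) also entered the sum of that array. Of 8 genes listed as pollen and anther markers the profilin genes PRO4 (log2 0.12) and PRO5 (log2 -0.05) were kept and did not pass here. PRO4 passed higher as deposited (adjusted p = 0.0399) and after quantile normalization (adjusted p = 0.00456). The sums of this list were 5332 to 6216 in B73 and 4804 to 6351 in Mo17, nearly all from PRO4 (means 3237 and 2999) and PRO5 (2577 and 2680). PRO4 and PRO5 also stood in the cytoskeleton list, and the other members had means of 11.9 to 21.3. These sums are therefore no measure of pollen or anther tissue.

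Different probe sets of a gene did not always give one answer. Of 102 named genes with several probe sets kept, 26 had all of them passing in one direction, 33 had some, 39 had none, and 4 had probe sets passing in opposite directions. At gst13 one probe set read 11.9, 28.8 and 11.9 in B73 against 242, 361 and 329.9 in Mo17 (log2 difference -4.27 ± 0.27, adjusted p = 6.53e-09), with 2 B73 arrays at the floor. The other gst13 probe set read 539, 395 and 340.1 in B73 against 119, 159 and 130.4 in Mo17 (log2 difference 1.63 ± 0.15, adjusted p = 5.99e-07). At the expansin gene expA4 the 3 probe sets differed by log2 2.36, 0.94 and -1.004. At tub6 they differed by log2 2.79, 0.61, -0.28 and -0.88. At tacs1 they differed by log2 0.72 and -0.52. The call of the weaker lower probe set of tub6 was lost without B73 replicate 2 (adjusted p = 0.162), Mo17 replicate 2 (0.175) or Mo17 replicate 3 (0.0845), and that of the lower one of tacs1 without B73 replicate 1 (adjusted p = 0.0584). No direction is given for these 4 genes as wholes. At sir, encoding sulfite reductase, 2 probe sets were lower in B73 (log2 -1.59 and -1.27) and the other did not pass (log2 -0.03). By Affymetrix convention the endings _x_at and _s_at mark probe sets that can also match other transcripts.

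A floor-level signal on all 3 arrays of one inbred beside a signal above the array median on all 3 arrays of the other was found for 47.0 probe sets with signal in B73 and 23 with signal in Mo17. With signal in B73, the lower bounds of the fold ran from 14.5 to 214 (median 25.6), and with signal in Mo17 from 15.9 to 322 (median 30.4). Of them 1 had a gene name, the second probe set of HRGP. These counts depend on where the floor is set: with the floor at the 40th percentile they were 199 and 112, and at the 10th percentile 8 and 1.

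The hybrid arrays entered the filter and the estimate of the spread but not the B73 and Mo17 means, and the 6 inbred arrays alone gave 3825 passing probe sets. Hybrid levels are given as a description. In all 70 probe sets with signal in one inbred alone, the 3 arrays of both hybrids were above the floor. The mean hybrid signal had a median of 52.3% of the B73 level for those of B73 and 47.0% of the Mo17 level for those of Mo17. Of the 1350 probe sets that passed with at least a 2-fold difference, 1299 (96.2%) had both hybrid means between the inbred means. On the linear scale the mean hybrid lay at a median of 48.1% of the way from the lower to the higher inbred (quartiles 38.8% and 58.2%). It lay at 52.5% where B73 was the higher and at 43.5% where Mo17 was; this difference was not tested. Among the named genes, CesA-4 was at 177 in B73xMo17 and 195 in Mo17xB73, aba1 at 486 in B73xMo17 and 491 in Mo17xB73 and m1 at 544 in B73xMo17 and 562 in Mo17xB73. The hybrids of his2b5 were near B73, at 4327 in B73xMo17 and 4229 in Mo17xB73. Those of pep7 were near Mo17, at 290.2 in B73xMo17 and 288 in Mo17xB73, and those of pdc2 were nearer to B73, at 35.4 in B73xMo17 and 36.4 in Mo17xB73. At asn1 the arrays read 298, 338 and 155 in B73xMo17 and 35.1, 138 and 151 in Mo17xB73, which nearly touch; the hybrids were not tested against each other. The gene hsp26 was below both inbred means in each hybrid, at 29.2 in B73xMo17 and 26.4 in Mo17xB73. Its arrays read 11.9, 11.9 and 64.0 in B73xMo17 and 15.7, 51.7 and 11.9 in Mo17xB73, where 11.9 is the floor. They overlapped the B73 arrays (18.03, 38.1 and 71.9), so a level outside the inbreds is not shown.

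**Figure D5:**
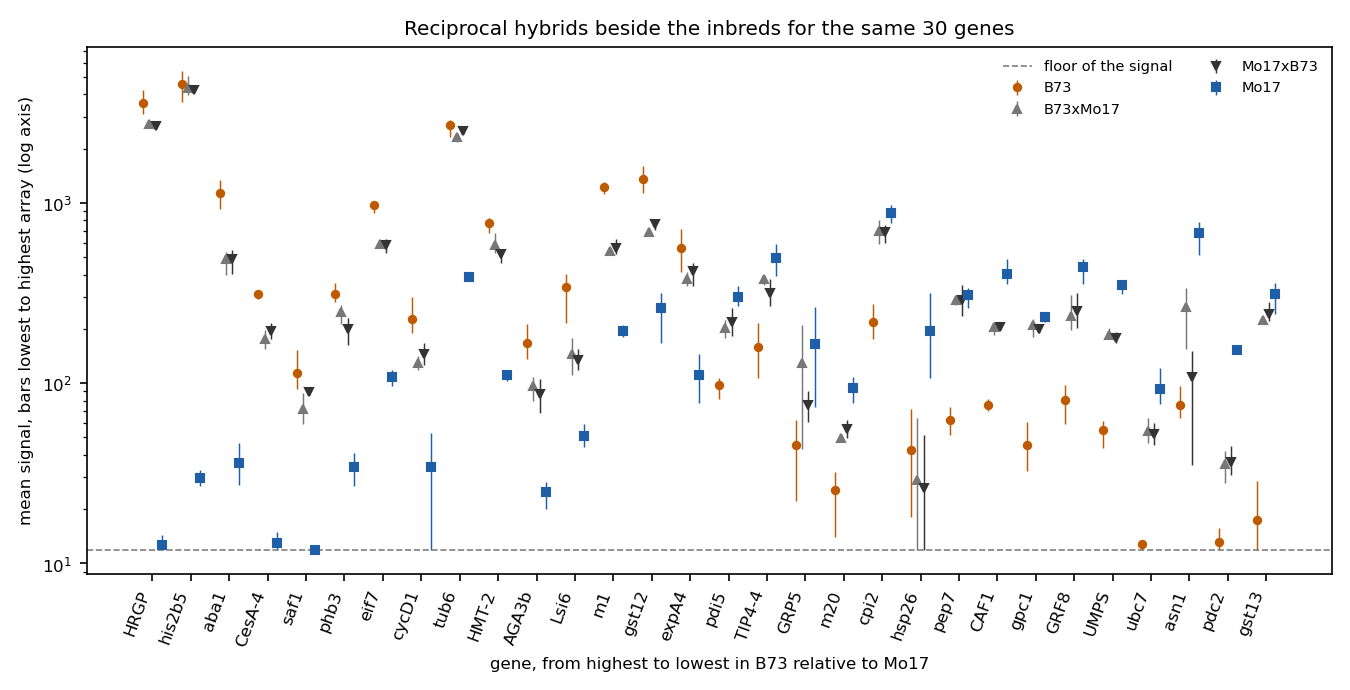
Mean signals (log axis) of B73, both reciprocal hybrids and Mo17 are plotted for the 15 genes highest and the 15 lowest in B73, at the same probe sets as in the plot of their arrays. Bars run from the lowest to the highest of 3 arrays, and the floor is dashed. Of the 60 hybrid points 58 lie between the inbreds and 54 lie nearer to the higher one on this log axis. A level midway on the linear scale also lies nearer to the higher inbred on a log axis. That count therefore does not tell which inbred the hybrids resembled. For hsp26 both hybrid means are below both inbred means, with arrays at the floor in each hybrid and ranges that overlap B73.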

How the data were processed

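RNA of immature ears was measured on 12 Affymetrix arrays, 3 for each of 4 genotypes, and the 6 arrays of B73 and Mo17 were compared. The deposited values are intensities, 1 linear signal per probe set and array, made with MAS5 per the submitters' processing notes; for its version, scaling target and later steps the sources used here give nothing. Groups and replicates came from the sample titles. Each array was multiplied to the median of the array medians over the 17621 probe sets other than controls. Signals under the floor, the median of the arrays' 20th percentiles, were set to it, and log2 was taken. A probe set was kept if 3 or more of the 12 arrays had it above their 40th percentile (11126 kept, 6495 removed). limma 3.58.1 in R 4.3.3 fitted a mean per genotype to all 12 arrays (eBayes with its trend option; residual degrees of freedom 8, prior 6.32), with Benjamini-Hochberg adjustment and two-sided p-values; the test was tried on simulated data. Python 3.11.15 made tables and figures.

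Names came from the platform annotation (1453 probe sets, 1377 found in a RefSeq gene table of assembly Zm-B73-REFERENCE-NAM-5.0, used for names only). A gene counts as higher or lower if any kept probe set passed. Named are the 15 genes highest and lowest in B73 with arrays that do not overlap, the 3 largest differences each way whatever the name, up to 4 kept members of each list with the smallest p, and every kept marker with the 3 highest markers by signal; others given beside them, and the cluster numbers, were chosen after their values were seen. The gene lists and the comparison were chosen with earlier results of these data known. Alternatives were other scalings, floors, no filter, other eBayes settings, the inbred arrays alone, a replicate block and leaving out each inbred array.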

Additional observations from a re-analysis of the deposited data

How the results depend on the processing

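The number of passing probe sets fell from 4746 to 2846 in the values as deposited, the lower ones from 2983 to 564, and those of at least 2-fold became 1237 higher and 383 lower. The deposited values carry the array medians, so the shift of all probe sets enters each difference there. That fit also had infinite prior degrees of freedom, so each probe set's own spread between replicates had no weight in it. All other settings kept these counts within 1.5 times; the floor at the 10th or 40th percentile, no filter (4983 of 17621 passing), the 6 inbred arrays alone (3825), robust or trend-free eBayes and the replicate block were tried. Leaving out each inbred array in turn gave 4046 to 4786 passing, 1555 to 1879 higher, 2318 to 3170 lower, 1308 to 1393 of at least 2-fold, 710 to 766 of at least 2-fold higher and 598 to 627 of at least 2-fold lower. The probe sets with signal in one inbred numbered 199 (B73) and 112 (Mo17) with the floor at the 40th percentile and 8 and 1 with it at the 10th; by construction a higher floor takes in more arrays. Of the 107 passing probe sets chosen by the naming rule, 82 passed the same way in all 4 scalings and 99 passed without each single inbred array. In the values as deposited meg6 (0.073), rpot1 (0.057) and rop6 (0.021) changed sign, with adjusted p of 0.825, 0.884 and 0.956. Robust eBayes ended the calls of GRP5, hsp26 and hsp22 (adjusted p = 0.0551, 0.0581 and 0.0512). Testing with no filter ended those of GRP5, hsp26, hsp22, plt2 and Pds (adjusted p = 0.0802, 0.0863, 0.0843, 0.0865 and 0.0506). That fit took in more probe sets and also had prior degrees of freedom of 0.762, against 6.32 in the main fit. The floor at the 40th percentile ended those of GRP5 (0.0609), ubc7 (0.194) and m20 (0.0817), the floor at the 10th that of hsp26 (0.0578), quantile normalization that of hsp22 (0.141) and the 6 inbred arrays alone that of Pds (0.0842), all adjusted p; the cause was not tested. Not every pair of replicate numbers correlated above 0.1, so the numbers were not taken as pairs. Deviations of same-numbered B73 and Mo17 arrays correlated at -0.06, -0.09 and 0.25, and with the replicate block 4947 probe sets passed. The hybrid arrays were left out of these correlations. In the values as deposited, replicate 1 was the lowest array of all 4 genotypes for the actin and GAPDH 3' controls. Those control signals were not scaled to the common median. The deposited array medians differed too, so this order describes the unscaled values alone. Signals near the floor limit differences to lower bounds, and 3 arrays per inbred limit the precision. The scaling over the probe sets kept was chosen after seeing the data.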
